A study of Mus musculus with 24 samples.

Results

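GABA-A receptors are pentameric chloride channels opened by GABA, the main inhibitory transmitter of the adult brain, and 7 genes for their subunits were examined here in RNA of the mouse hippocampus. The 7 genes were chosen by name: Gabra2, Gabra3, Gabrb1 and Gabrg1 as subunits of synaptic receptors, and Gabra4, Gabra5 and Gabrd as subunits of extrasynaptic receptors. They were found as 7 of the 55385 gene identifiers counted in each of 24 mice, and all 7 passed the filter on low counts in every comparison. The study followed the hippocampus after induced loss of Tsc1, a brake on mTOR signalling, to see how gene expression changed while epilepsy developed. Every mouse carried 2 floxed Tsc1 alleles (Tsc1 f/f) and received tamoxifen, so the control mice shared both. Control mice (Tsc1-Cre-) lacked Cre and were taken on day 8. Tsc1-Cre+ mice carried a Camk2a-CreERT2 transgene, in which the Camk2a promoter drives a tamoxifen-dependent Cre in excitatory forebrain neurons, and were taken on day 4, 6, 8 or 13. A last group of Tsc1-Cre+ mice received 10 mg/kg of rapamycin, an mTOR inhibitor, daily from day 4 and was taken on day 13. Each of the 6 groups held 4 adult mice, named A to D within the group, and a letter did not link mice of different groups.

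A receptor at the synapse usually joins alpha subunits such as alpha2 or alpha3 with a beta and a gamma subunit and carries the brief, phasic inhibition that follows each release of GABA. Receptors outside the synapse respond to ambient GABA and carry a steady, tonic current: the delta subunit (Gabrd) does so with alpha4 (Gabra4) in dentate granule cells, and alpha5 (Gabra5) does so in the pyramidal cells of CA1 and CA3. The beta1 subunit (Gabrb1) can enter both kinds of receptor, and gamma1 (Gabrg1) is known from astrocytes and from a limited set of brain regions, so the class of these members is that of the naming rule. The tissue sampled also held cells that do not express Camk2a and so kept Tsc1, and in bulk RNA fewer cells of a type and less RNA per cell cannot be told apart.

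Of the 7 genes, 4 lay together on chromosome 5 of build GRCm38, in a cluster from 70751047 to 72149037 that held 5 protein-coding genes: Gabrg1 (70751047 to 70842617, minus strand), Gabra2 (70957597 to 71095849, minus strand), Cox7b2, Gabra4 (71569749 to 71658308, minus strand) and Gabrb1 (71658113 to 72149037, plus strand). Gabra4 and Gabrb1 stood head to head and overlapped by 196 bases, of which 46 were exonic in both, 0.756% of the exons of Gabra4. Gabra5 lay on chromosome 7 (57407672 to 57510059, minus strand), where an antisense gene, Gm9962, shared 148 exonic bases or 4.98% of its exons and had at most 116 counts in a mouse. Gabrd lay on chromosome 4 (155384980 to 155398112, minus strand) and Gabra3 on chromosome X (72432681 to 72656848, minus strand). The sequences printed here are the 250 bases before the start site, from RefSeq on GRCm38.p6. They are shown for the synaptic member that was lower in all untreated Tsc1-Cre+ mice (Gabrg1), for the member whose rapamycin mice all lay below the controls and which has an entry (Gabra5), and for a neighbour of Gabrg1 in the cluster (Gabra2). Capitals mark a match to one of the motifs searched.
Gabrg1 promoter, chr5:70842618-70842867, minus strand: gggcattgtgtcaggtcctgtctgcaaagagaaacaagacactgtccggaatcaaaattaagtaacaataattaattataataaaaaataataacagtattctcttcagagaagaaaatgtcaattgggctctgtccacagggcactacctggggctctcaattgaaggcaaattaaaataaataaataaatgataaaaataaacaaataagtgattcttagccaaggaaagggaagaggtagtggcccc
Gabra5 promoter, chr7:57510060-57510309, minus strand: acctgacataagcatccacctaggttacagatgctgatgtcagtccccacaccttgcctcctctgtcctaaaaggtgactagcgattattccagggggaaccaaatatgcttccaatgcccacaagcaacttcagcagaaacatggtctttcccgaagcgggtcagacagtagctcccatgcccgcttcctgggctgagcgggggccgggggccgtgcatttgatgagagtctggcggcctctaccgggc
Gabra2 promoter, chr5:71095850-71096099, minus strand: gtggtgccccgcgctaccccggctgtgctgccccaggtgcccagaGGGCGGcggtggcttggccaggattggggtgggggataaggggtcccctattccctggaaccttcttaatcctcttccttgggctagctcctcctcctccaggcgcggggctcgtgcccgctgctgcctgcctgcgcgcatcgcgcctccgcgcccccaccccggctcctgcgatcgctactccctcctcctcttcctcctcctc

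These stretches differed in composition. The Gabrg1 promoter held 1 CpG and 35.6% GC, the Gabra5 promoter 9 CpG and 56.4% GC, and the Gabra2 promoter 18 CpG and 70.0% GC, against a median of 6 CpG over 32817 promoters of the same length. On both strands, the letters GGGCGG (the GC box) occurred in 1 place before Gabra2 and in 2 places before Gabra4 (chr5:71658309-71658558), and 32.7% of all promoters held them. The letters TGACGTCA (the cyclic AMP response element, in 1.55% of all promoters), TGANTCA (AP-1, 6.75%), CACGTG (the E-box, 6.02%) and GCGTGGGCG (EGR, 0.536%) were in none of the 8 stretches found for 6 of the 7 members. A match is a description of the letters, and Gabrd had no entry.

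The libraries held 28208561 to 126435936 counts, with a median of 55582027, and the highest total was that of day 13 mouse B. Tsc1 itself ranged from 103 to 109.5 CPM (counts relative to the TMM-adjusted library size) in controls and from 57.5 to 81.7 CPM in the Tsc1-Cre+ mice, so all 20 stood below all controls. The deposited data name the animals by numbers in series, and the time points came from different series except for controls and day 8, so time point and series cannot be told apart elsewhere. Males and females were sampled, but the labels do not tell which mouse was which. Mice A and B of day 13 stood apart from the other 2 of their group for many members, and the log2 changes of the 7 members on day 13 are therefore also given without them, a choice made after seeing the data. Day 13 and rapamycin mice were compared with the same 4 controls as the other groups, so no similarity between these comparisons is read as a result. All controls were taken on day 8, and no mouse without Cre received rapamycin. In a difference between rapamycin mice and controls, the drug, the loss of Tsc1 and the day therefore cannot be told apart.

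Levels of different genes were compared only as RPKM, which is CPM per kilobase of exon. In controls Gabra5 was highest, with 44.9 ± 5.04 RPKM (SD, n = 4), and its lowest mouse (40.9 RPKM) stood above the highest of Gabrb1. Gabrb1 followed with 27.1 ± 1.35 RPKM, Gabra2 with 22.3 ± 1.53 RPKM and Gabra4 with 18.6 ± 1.99 RPKM, where the ranges of Gabra2 and Gabra4 overlapped. The delta subunit gene Gabrd, with 9.28 ± 1.48 RPKM, and Gabra3, with 8.26 ± 0.789 RPKM, also overlapped, and Gabrg1 was lowest with 2.56 ± 0.131 RPKM. As a share of the summed RPKM of the 7 genes in each mouse, Gabra5 made up 33.7% ± 1.94 in controls and Gabrd 6.98% ± 1.00. Gabrd made up 5.97% ± 0.341 on day 6, 5.01% ± 1.21 on day 8 and 2.55% ± 1.25 on day 13, from 0.775% in mouse B to 3.74% in mouse C. No day 13 mouse reached the 6.04% of the lowest control. Under rapamycin Gabrd made up 5.57% ± 0.535, which overlapped the controls. Gabrb1 took 20.4% ± 0.400 in controls and 23.6% ± 4.96 on day 13, and 30.6% in day 13 mouse B.

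**Figure D1:**
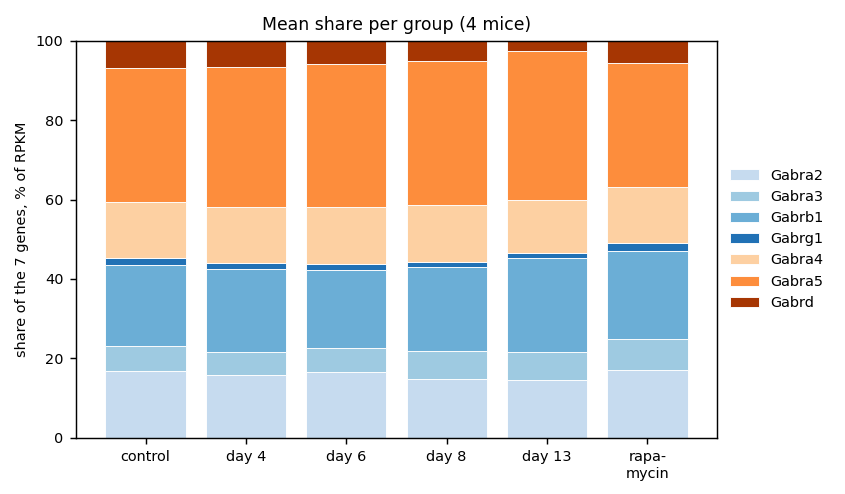
Stacked bars give the mean share (percent, vertical axis) of each of the 7 genes in their summed RPKM, for the 6 groups of 4 mice on the horizontal axis, with synaptic members in blue and extrasynaptic members in orange. The dark Gabrd segment is 6.98% in controls and 2.55% on day 13, and Gabra5 is the largest segment in every group.

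Gabrd, the subunit that marks tonic receptors of dentate granule cells, was lower on day 13 and under rapamycin than in controls. The control mice had 24.8, 23.4, 25.6 and 32.9 CPM. Day 4 mice had 30.0, 28.5, 26.8 and 19.4 CPM, and day 6 mice had 24.6, 25.0, 23.7 and 24.2 CPM. Both groups overlapped the controls, and on day 4 only mouse D fell below all of them. Day 8 mice had 14.8, 26.7, 16.1 and 24.6 CPM, so mice A and C lay below every control while mice B and D lay within the control range. Day 13 mice had 9.12, 2.56, 16.5 and 11.7 CPM, all below the lowest control, and mouse B was lowest of all 24 mice. Rapamycin mice had 18.1, 17.3, 17.7 and 21.6 CPM, below every control and above every day 13 mouse. In order of the mean the groups ran from control (26.7 ± 4.24 CPM) through day 4 (26.2 ± 4.70), day 6 (24.4 ± 0.548), day 8 (20.5 ± 5.98) and rapamycin (18.7 ± 2.00) to day 13 (9.98 ± 5.81 CPM), and only the last neighbours, rapamycin and day 13, did not overlap. Counts of Gabrd ranged from 300 to 1717 a mouse.

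In edgeR's quasi-likelihood test, a gene was called when its adjusted p was below 0.05 and its log2 fold change exceeded 0.5 in size. Gabrd fell by 1.45 on the log2 scale on day 13 (SE 0.436, adjusted p = 0.0355) and by 0.51 under rapamycin (SE 0.105, adjusted p = 0.0181), and both were called. At the earlier times the log2 changes were -0.03 for day 4 (adjusted p = 0.941), -0.14 for day 6 (adjusted p = 0.363) and -0.39 for day 8 (SE 0.186, adjusted p = 0.194), none of them called by edgeR. The day 13 call rested on its mice: the log2 change was between -1.78 and -1.11 with any 1 mouse left out, and it was not called without control A, B, C or D or without day 13 mouse A, where the adjusted p ranged up to 0.0926. Without day 13 mice A and B together it was -0.93 (adjusted p = 0.00380) and was called. Under rapamycin the change was between -0.60 and -0.40 with 1 mouse left out, and it was not called without control D (log2 change -0.40) or without rapamycin mouse A (adjusted p = 0.0570), B (adjusted p = 0.0600) or C (log2 change -0.49). Fitted together with all 24 mice, the rapamycin change had an adjusted p of 0.526 in edgeR. The study had itself picked Gabrd and Gabrg1 for its selection of ion channel genes on these same mice, so their direction here is not independent evidence.

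**Figure D2:**
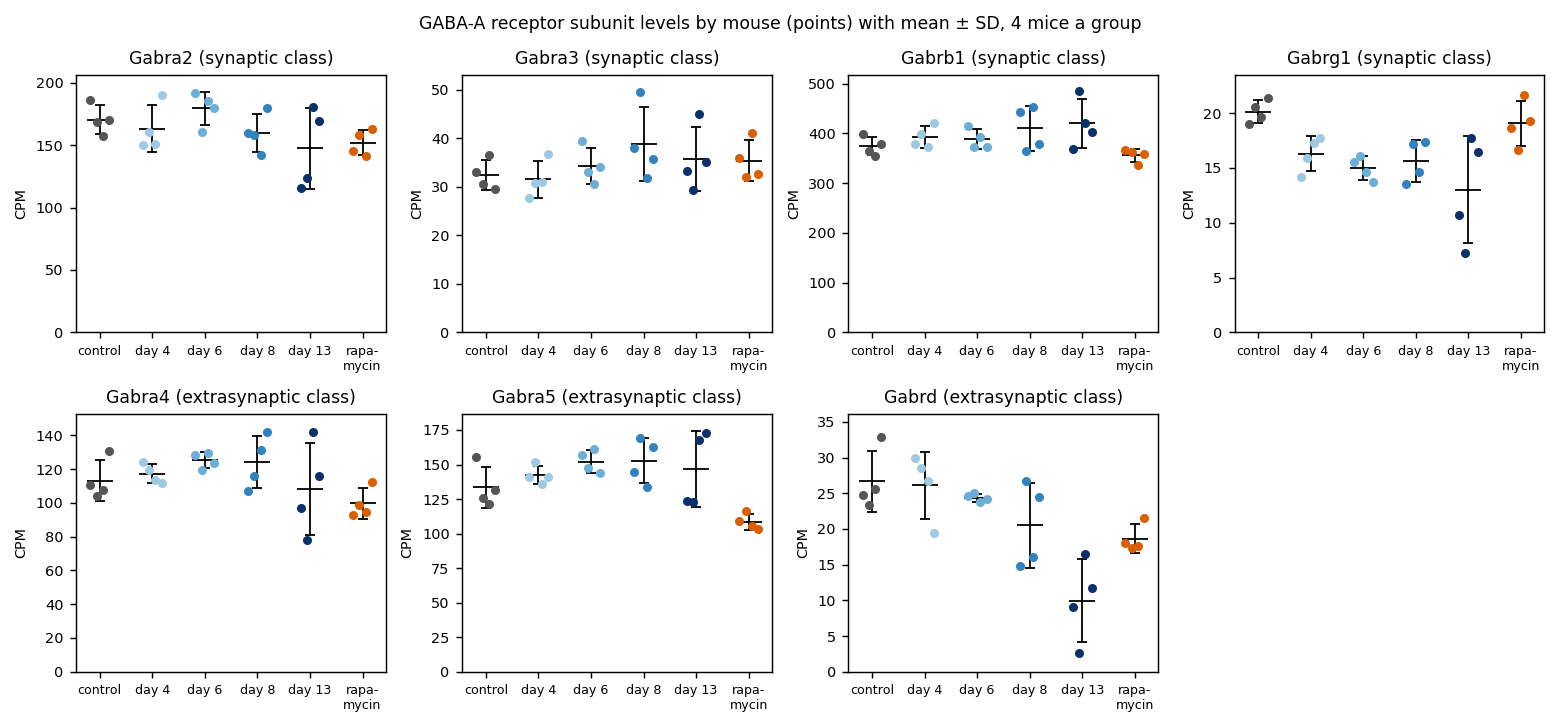
Each panel plots the level (CPM, vertical axis from 0) of 1 subunit gene in the 24 mice as points, by group on the horizontal axis, with the mean and SD of 4 mice as black bars. Gabrd lies between 2.56 and 16.5 CPM on day 13, under all controls, and Gabrg1 lies under all controls in every untreated Tsc1-Cre+ mouse.

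The summed level of markers of the cells that hold delta receptors was lower on day 13 than in any control, and 2 of the 6 markers were called lower then, where edgeR called 8.06% of all genes lower. The 6 markers of dentate granule cells (Prox1, C1ql2, Dsp, Tdo2, Plk5 and Calb1) summed to 377 to 416 CPM in controls, 341 to 482 CPM on day 4, 376 to 422 CPM on day 6, 260 to 377 CPM on day 8, 216 to 339 CPM on day 13 and 378 to 483 CPM under rapamycin. Day 13 therefore did not overlap the controls, and rapamycin did. Day 8 did not overlap them either, but its highest mouse (376.6 CPM) lay just under the lowest control (377.1 CPM). On day 13 the 2 called lower were Plk5, at 21.1 to 24.5 CPM in controls and 0.179 to 2.22 CPM on day 13, with a log2 change of -4.62 (edgeR, adjusted p = 0.00195), and Calb1 with -1.19 (edgeR, adjusted p = 0.00557). The other 4 were not called: Prox1, the granule cell transcription factor, had a log2 change of -0.20 (edgeR, adjusted p = 0.0915), C1ql2 of -0.18 (adjusted p = 0.765), Dsp of -0.61 (adjusted p = 0.0864) and Tdo2 of -1.36 (adjusted p = 0.0537). Under rapamycin only Plk5 of the 6 was called, at -0.52 (edgeR, adjusted p = 0.0193), where edgeR called 1.04% of all genes lower. On day 6 edgeR called 1 of the 6 higher, where it called 1.32% of all genes. Set against day 13, rapamycin mice had 4 of the 6 called higher by edgeR, with a median log2 difference of 1.13, where it called 21.1% of all genes. On day 4, mouse D had both the lowest Gabrd (19.4 CPM) and the lowest granule cell sum (341 CPM) of its group. On day 8 the mice low in Gabrd, A and C, had granule cell sums of 314 and 333 CPM, while mouse B had the lowest sum (260 CPM) and the highest Gabrd (26.7 CPM). Some single markers ran otherwise than the sum: in day 8 mice A and C, Plk5 was 1.67 and 1.33 CPM, against 9.59 and 15.6 CPM in B and D. Tdo2 was 2.58 and 2.40 CPM in A and C and 7.62 and 12.3 CPM in B and D, and Calb1 was 46.1 and 56.0 CPM against 64.3 and 81.2 CPM. Those 3 markers were thus lower in both mice low in Gabrd than in the other 2. The rest of the list did not follow: C1ql2 was 64.7 and 42.7 CPM in A and C, against 31.95 and 42.4 CPM in B and D. Prox1 was 99.8 and 129.6 CPM against 75.6 and 112.0 CPM, and Dsp was 99.2 and 101.0 CPM against 71.3 and 113.0 CPM. The part of these markers in the level of Gabrd was not tested.

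Gabrd is also abundant in the thalamus, and 4 thalamic markers (Tcf7l2, Prkcd, Lef1 and Tnnt1) were summed in the same way. They came to 116 CPM in control D, the control with the highest Gabrd, and to 39.9 to 43.2 CPM in the other controls. The range was 31.1 to 53.4 CPM on day 4, 27.6 to 31.2 CPM on day 6, 17.8 to 121 CPM on day 8 (mouse C highest), 20.1 to 28.0 CPM on day 13 and 30.1 to 54.8 CPM under rapamycin, with rapamycin mouse D highest there in both the markers and Gabrd. Day 8 mouse C, with the highest thalamic sum of the series, had 16.1 CPM of Gabrd, below every control. None of the 4 was at 0 in any mouse, and 1 of them, Prkcd, was called lower on day 13 by edgeR (log2 change -1.72, adjusted p = 0.0111), while DESeq2 called 2. On day 6 edgeR called 2 of the 4 lower, Prkcd (log2 change -1.24, adjusted p = 0.0177) and Tnnt1 (-2.08, adjusted p = 0.0444), and DESeq2 also called 2, where Gabrd had a log2 change of -0.14 (adjusted p = 0.363). Of all genes, edgeR called 1.32% on day 6 and 16.5% on day 13. Without control D, Gabrd was lower by a log2 change of -1.33 on day 13 (edgeR, adjusted p = 0.0926) and of -0.40 under rapamycin (edgeR, adjusted p = 0.0410). The part of thalamic tissue in these values was otherwise not tested.

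**Figure D3:**
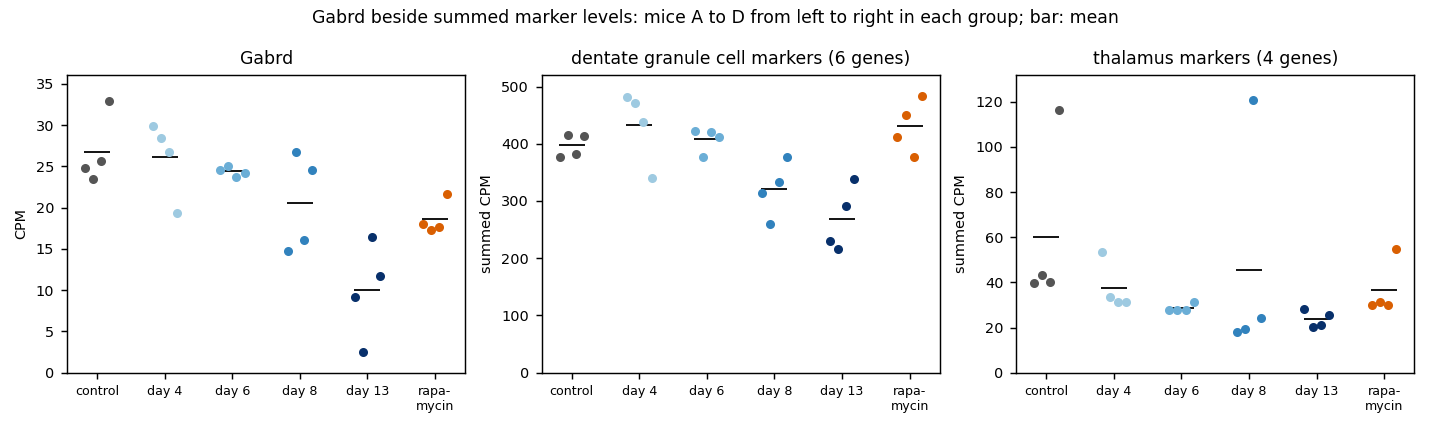
The panels give, for mice A to D from left to right in each group, the level of Gabrd (CPM), the summed level of 6 dentate granule cell markers (CPM) and the summed level of 4 thalamic markers (CPM), with the group mean as a bar. Day 13 has the lowest mean of Gabrd (mice at 2.56 to 16.5 CPM) and 216 to 339 CPM in the granule cell sum, and control D and day 8 mouse C stand out in the thalamic sum at 116 and 121 CPM.

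Gabra4 encodes the alpha4 subunit that pairs with delta, and it was not called where Gabrd was. Controls had 110.4, 104, 108 and 131 CPM, and day 13 mice had 96.8, 77.8, 142 and 116 CPM, so that mouse B was lowest and mouse C highest. Rapamycin mice had 92.8, 98.9, 94.4 and 113 CPM, and 3 of the 4 lay below all controls. The order of the means was day 6 (125 ± 4.61 CPM), day 8 (124 ± 15.4), day 4 (117 ± 5.74), control (113 ± 12.1), day 13 (108 ± 27.5) and rapamycin (99.7 ± 8.99 CPM), and all neighbours overlapped. Gabra4 was not called in any comparison by edgeR, with log2 changes from -0.18 under rapamycin (adjusted p = 0.232) to 0.14 on day 6 (adjusted p = 0.177), and -0.08 on day 13 (adjusted p = 0.749). Without day 13 mice A and B the day 13 change had the opposite sign, 0.19 (edgeR, adjusted p = 0.251).

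The ratio of Gabra4 to Gabrd within each mouse, both per exon length, does not depend on the scaling of the libraries. It was 2.10, 2.10, 1.99 and 1.88 in the controls (mean 2.02 ± 0.106). On day 4 it was 1.96, 1.98, 2.00 and 2.73, and on day 6 it was 2.47, 2.26, 2.58 and 2.42, above every control. Day 8 mice had ratios of 3.42, 2.05, 3.85 and 2.73, where mouse B lay within the control range, and day 13 mice had 5.02, 14.4, 4.08 and 4.66, all above every other mouse of the series. The rapamycin ratios of 2.43, 2.71, 2.53 and 2.46 lay above every control and below every day 13 mouse. As a difference of mean log2 ratios from the controls, this was 1.60 on day 13, 0.33 under rapamycin and 0.27 on day 6, each at the smallest p that a two-sided exact permutation test of 4 mice against 4 can give (p = 0.0286, adjusted over 5 groups 0.0476). The difference was 0.54 on day 8 (exact permutation p = 0.0857, adjusted 0.107) and 0.09 on day 4 (exact permutation p = 0.743, adjusted 0.743). With 1 mouse left out no exact permutation test can go below p = 0.0571, and the day 13 difference was then between 1.18 and 1.79, lowest without day 13 mouse B.

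**Figure D4:**
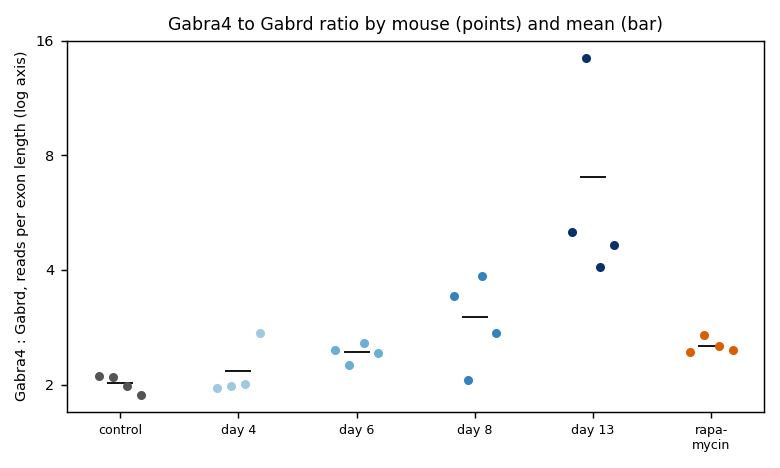
Points give the ratio of Gabra4 to Gabrd per exon length (vertical log axis) in each of the 24 mice, by group on the horizontal axis, and bars give the group mean. Controls lie between 1.88 and 2.10, day 13 mice between 4.08 and 14.4, and rapamycin mice between 2.43 and 2.71.

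Gabra5, the alpha5 subunit of tonic receptors on pyramidal cells, was at its lowest in the rapamycin mice, although edgeR did not call it against the controls. Controls had 155, 126, 122 and 132 CPM, and rapamycin mice had 109, 116, 106 and 103 CPM, all below every control. Day 13 mice had 124, 123, 168 and 173 CPM, so mice C and D lay above every control and mice A and B within their range. Of the 16 untreated Tsc1-Cre+ mice, 6 lay above all controls and none below. The means ran from day 8 (153 ± 16.3 CPM) through day 6 (152 ± 8.11), day 13 (147 ± 27.3), day 4 (142 ± 6.77) and control (134 ± 15.0) to rapamycin (109 ± 5.68 CPM), and only control and rapamycin were neighbours that did not overlap. The log2 change under rapamycin was -0.30 against controls (SE 0.0709, edgeR, adjusted p = 0.0372), under the fold minimum, so it was not called. That adjusted p passed 0.05 without control D (0.0781) or without rapamycin mouse A (0.0817), C (0.0816) or D (0.0648). It was also above 0.05 in fits of all 24 mice (0.169 in edgeR and 0.0869 in DESeq2) and when Xist was added to the edgeR fit (0.0528). The log2 change on day 13 was 0.12 (edgeR, adjusted p = 0.550), and without day 13 mice A and B it was 0.35 (edgeR, adjusted p = 0.0253). The 6 pyramidal neuron markers summed to 515 to 639.8 CPM in controls, highest in mouse A as Gabra5 was, and to 464 to 556 CPM under rapamycin. These ranges overlapped. Of the single markers only Wfs1 did not, with 87.0 to 98.15 CPM in controls and 71.9 to 76.8 CPM under rapamycin. Over all genes, 11.9% did not overlap between these groups. The part of the markers in the level of Gabra5 was not tested.

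Among the synaptic members, Gabrg1 stood apart: all 16 untreated Tsc1-Cre+ mice had less Gabrg1 than any control. How many of all genes had that pattern in all 16 mice was not counted. At single time points, the genes without overlap, in either direction, made up 11.8% (day 4) to 30.9% (day 13) of those tested. Every time point shared the same controls, so the likeness between time points is not read as a result. Controls had 19.0, 20.6, 19.6 and 21.4 CPM. Day 4 mice had 14.2, 15.9, 17.3 and 17.7 CPM, day 6 mice had 15.5, 16.1, 14.7 and 13.7 CPM, and day 8 mice had 13.5, 17.2, 14.6 and 17.4 CPM. These 3 groups overlapped one another. Day 13 mice had 10.7, 7.26, 17.7 and 16.4 CPM, with mice A and B lowest of the series. Rapamycin mice had 18.6, 16.6, 21.7 and 19.3 CPM, of which 2 lay below all controls and 1 above them. In order, the means were 20.1 ± 1.03 CPM in controls, 19.1 ± 2.09 under rapamycin, 16.3 ± 1.60 on day 4, 15.7 ± 1.92 on day 8, 15.0 ± 1.05 on day 6 and 13.0 ± 4.90 CPM on day 13, and each pair of neighbours overlapped.

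Gabrg1 had a log2 change of -0.31 on day 4 (SE 0.0739, edgeR, adjusted p = 0.0386), of -0.43 on day 6 (SE 0.0655, adjusted p = 0.00122) and -0.37 on day 8 (SE 0.0923, adjusted p = 0.0229), in 4 of 4 mice each time, which passed the adjusted p but not the fold minimum. On day 13 it was -0.65 (SE 0.248, edgeR, adjusted p = 0.0775), not called by edgeR but called by DESeq2 (adjusted p = 0.0366), and over the other settings the adjusted p ranged from 0.00146 to 0.0958. Without day 13 mouse C (log2 change -0.81, adjusted p = 0.0338) or D (-0.79, adjusted p = 0.0471), edgeR called it. Without mouse B it was -0.44 (adjusted p = 0.0884), and without mice A and B together it was -0.24 (adjusted p = 0.0657), so its size rested on those mice. Under rapamycin it was -0.08 (edgeR, adjusted p = 0.670). The day 6 result held its adjusted p below 0.05 with any 1 mouse left out (0.00109 to 0.00831). The day 4 adjusted p passed 0.05 without control B, C or D or day 4 mouse A, B or C (0.0614 to 0.131), and the day 8 adjusted p did so without control B, C or D or day 8 mouse A (0.0544 to 0.0751). In edgeR fits of all 24 mice the adjusted p was 0.610 for day 4, 0.277 for day 6 and 0.187 for day 8, and with the animal number series as a term on day 8 it was 0.0314. Counts of Gabrg1 ranged from 537 to 1246 a mouse.

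Astrocyte markers moved with Gabrg1 in some groups and apart from it in others. The 6 markers (Aqp4, Gja1, Slc1a3, Aldh1l1, Gfap and S100b) summed to 1106 to 1150 CPM in controls, 929 to 1115 CPM on day 4, 929 to 966 CPM on day 6 and 884 to 1732 CPM on day 8. They reached 1228 to 2141 CPM on day 13 and 877 to 928 CPM under rapamycin, where Gabrg1 overlapped the controls. The high sums on day 8 and 13 followed Gfap, with 162 to 209 CPM in controls, 127 to 900 on day 8 and 372 to 1357 on day 13. On day 13 Gja1 (49.3 to 145.5 CPM) lay below every control (169 to 184 CPM). Aqp4, Slc1a3, Aldh1l1 and S100b overlapped the controls on day 13. On day 6 all 6 had an adjusted p below 0.05 with lower levels and a median log2 change of -0.34, against -0.02 over all genes tested, and none was called. Under rapamycin edgeR called 3 of the 6 lower, with a median log2 change of -0.39, where it called 1.04% of all genes lower. On day 8 it called 1 of the 6 lower, where it called 3.99% of all genes. On day 13 Gja1, a gap junction gene of astrocytes, was called lower (log2 change -0.93, edgeR, adjusted p = 0.0446), and Gfap, which rises in reactive astrocytes, was called higher (log2 change 1.91, edgeR, adjusted p = 0.00466). The markers did not run together within day 13: in mice A and B, the mice with the least Gabrg1, Gja1 was lowest (49.3 and 62.8 CPM), while Gfap (751 and 1357 CPM, against 372 and 437 CPM in C and D) and Aqp4 (189.9 and 220.2 CPM, against 133.6 and 136.0 CPM) were highest. Slc1a3 (431 and 374 CPM, against 474 and 443 CPM) and S100b (54.6 and 53.1 CPM, against 74.2 and 68.2 CPM) were also lower in A and B. Aldh1l1 was mixed, with 45.8 and 74.3 CPM against 54.4 and 56.0 CPM. The part of astrocytes in the level of Gabrg1 was not tested.

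Gabra2, Gabra3 and Gabrb1 were not called by edgeR in any comparison. Gabra2, an alpha subunit of synapses on pyramidal cells, had 158 to 186 CPM in controls and 115, 124, 181 and 169.6 CPM on day 13, with mice A and B below every control. Its means ran from day 6 (179.5 ± 13.4 CPM), control (171 ± 11.7), day 4 (163 ± 18.8) and day 8 (160.0 ± 15.3) to rapamycin (152 ± 10.2) and day 13 (148 ± 32.6 CPM), and its log2 changes lay between -0.23 on day 13 (edgeR, adjusted p = 0.272) and 0.06 on day 6 (adjusted p = 0.555). Gabra3, a synaptic alpha subunit of low level in the adult hippocampus, ranged from 27.7 to 49.5 CPM over all mice. Its highest mean was that of day 8 (38.8 ± 7.59 CPM, with mouse B at 49.5) and its lowest that of day 4 (31.5 ± 3.81 CPM), and the largest change was 0.25 (log2 change on day 8, edgeR, adjusted p = 0.211). Gabrb1, a beta subunit that forms part of the GABA site, ranged from 337 to 486 CPM, highest in day 13 mouse B. Its means were 420.2 ± 49.2 CPM on day 13, 410.3 ± 44.7 on day 8, 393 ± 21.4 on day 4, 389 ± 20.5 on day 6, 374 ± 18.7 in controls and 356 ± 13.1 CPM under rapamycin, and 8 of the 16 untreated Tsc1-Cre+ mice lay above all controls. The largest change of Gabrb1 against controls was 0.14 (log2 change on day 13, edgeR, adjusted p = 0.221). For all 3 genes every pair of neighbouring groups overlapped. Without day 13 mice A and B, the day 13 change was 0.04 for Gabra2 (edgeR, adjusted p = 0.784), opposite in sign to that with them, 0.30 for Gabra3 (adjusted p = 0.0847) and 0.14 for Gabrb1 (adjusted p = 0.180).

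**Figure D5:**
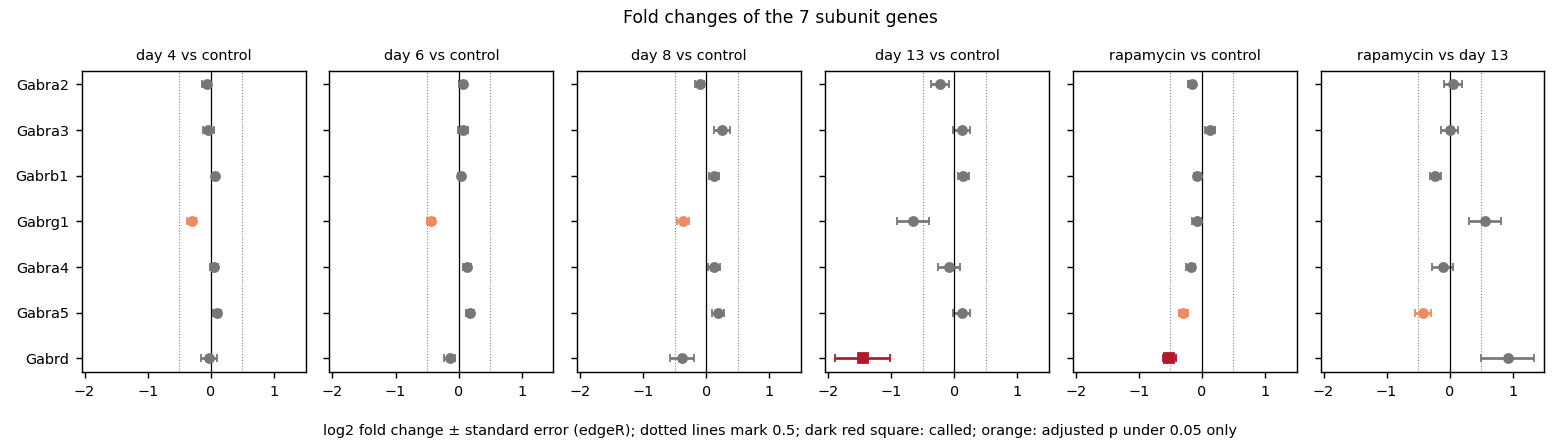
Points give the log2 fold change of each gene with its standard error from edgeR (horizontal axis) in 6 comparisons, with dotted lines at 0.5 in either direction, dark red squares for called genes and orange points for an adjusted p below 0.05 alone. Gabrd is called on day 13 (-1.45) and under rapamycin (-0.51), and Gabrg1 is orange on day 4, 6 and 8.

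Counted over the list, 0 of 7 members were called on day 4, where edgeR called 0.680% of 25308 genes, 0 on day 6 (1.32% of all genes) and 0 on day 8 (3.99%), and DESeq2 also called 0 each time. At an unadjusted p below 0.05, edgeR had 1 member on day 4, 3 on day 6 and 1 on day 8. Without the fold minimum 1 member, Gabrg1, passed on each of these days, against 4.16%, 10.1% and 13.3% of all genes. On day 13, 1 of 7 was called, lower, against 16.5% of all genes called and 8.06% called lower, and 1 passed without the fold minimum against 26.9%, so the share called was near that of all genes. Under rapamycin 1 of 7 was called, lower, against 1.41% called and 1.04% called lower, and 2 passed without the fold minimum against 3.57%. A gene whose 8 mice did not overlap between the groups was found for 11.8% of genes on day 4, 15.9% on day 6, 20.2% on day 8, 30.9% on day 13 and 11.9% under rapamycin, and the members held 1 on day 4, 6 and 8 (Gabrg1), 2 on day 13 (Gabrg1 and Gabrd) and 2 under rapamycin (Gabra5 and Gabrd). In an F test of edgeR for any difference among the 6 groups, 3 of 7 passed (Gabra5 with adjusted p = 0.00270, Gabrd with 0.00672 and Gabrg1 with 0.0349), against 41.9% of 27110 genes.

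By class, the extrasynaptic members held the called gene on day 13 (1 of 3 lower, and 0 of 4 synaptic members) and under rapamycin (1 of 3, and 0 of 4). At an adjusted p below 0.05 without the fold minimum, the synaptic members held 1 of 4 on day 4, 6 and 8 and the extrasynaptic members held 0 of 3. The median log2 change on day 13 was -0.05 over the synaptic and -0.08 over the extrasynaptic members, beside -0.04 over all genes, and under rapamycin it was -0.08 and -0.30, beside 0.01. As the mean log2 level relative to the controls, the synaptic minus the extrasynaptic class differed on day 13 by 0.257, 0.918, 0.142 and 0.233 in mice A to D (mean 0.39 ± 0.357). It differed under rapamycin by 0.28 ± 0.10, on day 4 by -0.13 ± 0.243, on day 6 by -0.13 ± 0.0602 and on day 8 by 0.01 ± 0.164, where controls ranged from -0.178 to 0.101. Without Gabrd the day 13 difference had the opposite sign, -0.18 ± 0.0572, and the rapamycin difference was 0.19 ± 0.0984, so the day 13 gap between the classes had its sign only with Gabrd included. These class values are descriptions, since the classes were set by the naming rule.

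Set directly against day 13, rapamycin mice were higher in Gabrd by a log2 difference of 0.92 (SE 0.421, edgeR, adjusted p = 0.122) with no overlap between the 8 mice. Gabra5 differed by -0.43 (SE 0.128, edgeR, adjusted p = 0.0293), and its highest rapamycin mouse (116 CPM) lay below its lowest day 13 mouse (123 CPM). Neither was called, and 0 of 7 members were called by edgeR or DESeq2 against 21.1% of all genes, with 3 members at an unadjusted p below 0.05 in edgeR. Without the fold minimum 1 of 7 passed (Gabra5) against 30.8% of genes, and 2 of 7 did not overlap against 32.8%. The other differences were 0.56 for Gabrg1 (adjusted p = 0.113), -0.23 for Gabrb1 (adjusted p = 0.0618), -0.11 for Gabra4 (adjusted p = 0.642), 0.05 for Gabra2 (adjusted p = 0.817) and 0.00 for Gabra3 (adjusted p = 0.992). Without day 13 mice A and B, Gabra5 was called (log2 difference -0.65, adjusted p = 1.59e-04) and the Gabrd difference was 0.41 (adjusted p = 0.0705). The Gabrg1 difference was then 0.16 (adjusted p = 0.356), that of Gabra4 -0.37 (adjusted p = 0.0215), of Gabrb1 -0.21 (adjusted p = 0.0490), of Gabra3 -0.17 (adjusted p = 0.348) and of Gabra2 -0.20 (adjusted p = 0.0812), the last with the sign turned. With 1 mouse left out, Gabra5 was called without day 13 mouse A (-0.51, adjusted p = 0.0149) or B (-0.51, adjusted p = 0.0111), and Gabrd without day 13 mouse B (0.59, adjusted p = 0.0468) or C (1.27, adjusted p = 0.0390). Gabrg1 was called without day 13 mouse C (0.74, adjusted p = 0.0406). Between day 13 and day 8, the log2 difference of Gabrd was -1.06 (SE 0.461, edgeR, adjusted p = 0.349). There edgeR called 0 of 24747 genes, or 0.00%, with 3479 at an unadjusted p below 0.05, and DESeq2 called 238, so 0 of 7 members called says little, and the members' groups all overlapped.

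The other 12 GABA-A subunit genes gave the setting. Gabra6, Gabre, Gabrp, Gabrq and Gabrr3 were too low to test on day 13, and 0 of the 7 tested genes were called then by edgeR or DESeq2, where edgeR called 16.5% of all genes. At an unadjusted p below 0.05, edgeR had 2. Those 2 were Gabrb2, a beta subunit of synaptic receptors, with a log2 change of -0.44 (edgeR, adjusted p = 0.0353), and Gabrg3 with -0.29 (adjusted p = 0.0213). Their median on day 13 was -0.26, beside -0.04 over all genes. Under rapamycin 1 of 8 was called, where edgeR called 1.41% of all genes. It was Gabrr2, a rho subunit, at 0.789 to 1.44 CPM in controls and 1.92 to 2.69 CPM under rapamycin (log2 change 0.93, edgeR, adjusted p = 0.0224).

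Of 16 genes that anchor and move GABA-A receptors, 3 were called higher and 1 lower on day 13, where 16.5% of all genes were called. Hap1, which binds receptors returning to the surface, had 73.9 to 79.0 CPM in controls, 33.5 to 51.5 on day 8, 19.4 to 42.4 on day 13 and 65.6 to 92.4 CPM under rapamycin, and was called lower on day 8 (log2 change -0.89, edgeR, adjusted p = 0.00107) and day 13 (-1.41, adjusted p = 0.00279). Trak2, a kinesin adaptor that binds GABA-A receptors, had 221 to 238 CPM in controls and 387 to 462 CPM on day 13 (log2 change 0.88, edgeR, adjusted p = 1.48e-04). Iqsec3, a gephyrin-binding exchange factor of inhibitory synapses, changed by 0.59 (adjusted p = 0.00348), and Gabarap, which links the gamma2 subunit to transport, by 0.57 (adjusted p = 0.00112). Under rapamycin 0 of 16 were called by edgeR or DESeq2, with 2 at an unadjusted p below 0.05, where edgeR called 1.41% of all genes. Against day 13 the rapamycin mice had 1 called higher and 3 lower, where edgeR called 21.1% of all genes. The list's median log2 change on day 13 was 0.15, beside -0.04 over all genes.

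The 9 genes for GABA synthesis, transport and breakdown had a median log2 change of -0.23 on day 13, beside -0.04 over all genes. On day 13 edgeR called 1 of 9, lower, and DESeq2 called 1, with 4 at an unadjusted p below 0.05 in edgeR. There edgeR called 8.06% of all genes lower. Under rapamycin 0 of 9 were called by either tool, with 2 at an unadjusted p below 0.05, where edgeR called 1.41% of all genes. Against day 13 the rapamycin mice had 1 of 9 called higher, where edgeR called 21.1% of all genes. Of 6 GABA-B receptor genes, 0 were called in any comparison by edgeR or DESeq2, with 0 to 2 at an unadjusted p below 0.05. Over these comparisons edgeR called 0.00% to 21.1% of all genes.

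Over the 24 mice, and among 13908 protein-coding genes with a mean of at least 1 CPM, the genes most like Gabrd by Pearson's r of log2 CPM were Slc6a11 (r = 0.946), Klf12 (r = 0.945) and Cmpk2 (r = 0.940). Slc6a11 encodes GAT3, the GABA transporter of astrocytes that controls ambient GABA, and had 67.4 to 77.5 CPM in controls, 16.4 to 65.2 CPM on day 13 and 59.4 to 65.9 CPM under rapamycin. Its log2 change was -0.81 on day 13 (edgeR, adjusted p = 0.117) and -0.25 under rapamycin (adjusted p = 0.0266), neither of them called. Klf12, a transcription factor of the Kruppel-like family, had a mean of 52.0 CPM in controls and 37.7 CPM on day 13, and Cmpk2, a mitochondrial nucleotide kinase, had 17.2 and 10.1 CPM. These correlations describe points that share group, library depth and the low day 13 mouse B.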

How the data were processed

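Hippocampal RNA came from 24 mice in 6 groups of 4, and groups and mouse letters come from the sample titles. Stranded libraries were prepared by the authors after removal of rRNA. Per the labels' processing notes, reads were trimmed (cutadapt 1.16.5), aligned to GRCm38 (STAR 2.7.2b) and assigned to GENCODE genes (featureCounts 1.6.4). The authors deposited whole-number read counts per gene and mouse, without normalization. The strand setting and the handling of reads with several alignments are not given in the sources used here, so genes that overlap are uncertain in their shared exons. Names and positions come from GENCODE M21, in which 55144 of 55385 identifiers were found, 54487 of them with the same version.

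Total counts ran from 28208561 to 126435936 a mouse, and no file repeated another. Each comparison used the 8 mice of its groups in edgeR 4.0.16 (R 4.3.3): filterByExpr, TMM scaling, the quasi-likelihood test and Benjamini-Hochberg adjustment over all genes tested. Calls needed an adjusted p below 0.05 with a log2 change above 0.5 in size. CPM used TMM factors of all 24 mice, RPKM divided it by the exon length, and correlations used log2 CPM with a prior count of 0.5. The ratio of Gabra4 to Gabrd was compared by a two-sided exact permutation test over 70 arrangements (scipy 1.17.1), which cannot give a p below 0.0286. The p-values weigh a difference between groups against the spread between mice. The fits were tested on simulated data.

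Named were all 7 members, Tsc1, at most 4 genes of each pathway list called on day 13 by size of change, and the 3 genes most like a member called against controls. Gabrb2, Gabrg3, Gabrr2 and the marker genes with values were named after their values were seen. Values of a few listed genes are not reported here. The members, the classes and the gene lists were chosen with earlier results of these data known. The alternatives were DESeq2 1.42.0, fits of all 24 mice, size factors of DESeq2, no low-count filter, the mouse letter as a block, no fold minimum, counts thinned to 28208561 a mouse, Xist as a covariate, the animal number series on day 8, linear ratios and each mouse left out. Leaving out day 13 mice A and B was added after the data were seen.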

Additional observations from a re-analysis of the deposited data

Results flagged for a closer look

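Of 48 sets of 4 mice examined (the 7 members and the ratio of Gabra4 to Gabrd in each group), 2 held a mouse far from the other 3 of its group, where chance alone gives about 1 in 20. Day 4 mouse D had the highest ratio of Gabra4 to Gabrd in its group, 2.73, while the other 3 lay between 1.96 and 2.00, and it also had the lowest Gabrd of that group (19.4 CPM). Day 13 mouse B had a ratio of 14.4, while the other 3 lay between 4.08 and 5.02, and it had the lowest Gabrd (2.56 CPM), the highest Gabrb1 (486 CPM) and the highest total count of the series.

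The change of Gabra5 differed between untreated day 13 mice and rapamycin mice: the direct test of the difference gave a log2 value of -0.43 (edgeR, adjusted p = 0.0293), lower in 4 of 4 rapamycin mice than in any day 13 mouse. Over the other settings its adjusted p ranged from 1.59e-04 to 0.0611, and with 1 mouse left out up to 0.0825.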

How the results depend on the processing

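Against controls, the number of members called was 1 on day 4, 6 and 8 with no fold minimum (0 with it), and 2 on day 13 by DESeq2 and in fits of all 24 mice by edgeR or DESeq2 (1 otherwise), the added gene being Gabrg1. Under rapamycin the number was 2 with no fold minimum and 0 in both fits of all 24 mice and with thinned counts, where Gabrd had a log2 change of -0.49. Between rapamycin and day 13 it was 1 with no fold minimum, 2 in both fits of all 24 mice, 1 with the replicate block (Gabrg1, 0.64) and 1 without day 13 mice A and B (0 otherwise). Between day 13 and day 8 it was 1 in both fits of all 24 mice (Gabrd). When 1 mouse was left out, the number called was 0 to 2 on day 13, 0 to 1 under rapamycin, 0 to 2 between rapamycin and day 13, and 2 to 4 in the F test. The letters did not pair the mice: deviations of mice with the same letter correlated at -0.29 to 0.20, and the replicate block changed no other call.

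The log2 difference of the Gabra4 to Gabrd ratio was 0.57 on day 8 with thinned counts (adjusted p = 0.0357), past the threshold there only. With 1 mouse left out it ranged from -0.023 to 0.14 on day 4, 0.24 to 0.30 on day 6, 0.41 to 0.71 on day 8, 1.18 to 1.79 on day 13 and 0.30 to 0.35 under rapamycin, where 3 mice against 4 cannot reach significance.

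Signs turned only for members not called. Gabra3 was 0.023 on day 4 with Xist as a covariate, and between rapamycin and day 13 it was 0.0025 with no filter, 0.0091 with the replicate block and 0.0032 with Xist. Without day 13 mice A and B, day 13 gave 0.035 for Gabra2 and 0.19 for Gabra4, rapamycin against day 13 gave -0.20 for Gabra2, and day 13 against day 8 gave 0.13 for Gabra2, 0.047 for Gabra3, 0.058 for Gabra4, 0.16 for Gabra5 and 0.12 for Gabrg1. With 1 mouse left out, ranges that crossed 0 were -0.12 to 0.027 (Gabra3, day 4), -0.10 to 0.091 (Gabrd, day 4), -0.0012 to 0.13 (Gabra3, day 6) and -0.22 to 0.058 (Gabra4, day 13). Between rapamycin and day 13 they were -0.056 to 0.16 (Gabra2), -0.094 to 0.12 (Gabra3) and -0.25 to 0.042 (Gabra4), and between day 13 and day 8 -0.26 to 0.0064 (Gabra3), -0.16 to 0.019 (Gabra5) and -0.043 to 0.077 (Gabrb1). With Xist as a covariate, Gabrg1 on day 4 was -0.23 (edgeR, adjusted p = 0.166). The cause of these shifts was not tested. Over the 7 members and their alternatives, 796 values kept direction and call, 30 changed sign, 23 gained a call and 12 lost one. Gabrg1 and Gabrd had the fewest counts of the 7, down to 537 and 300 a mouse, which limits small differences.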

Other observations

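Some marker lists outside the neurons also differed between groups, and none was used to explain a subunit level. Under rapamycin 3 of 6 oligodendrocyte markers and 2 of 6 microglial markers were called lower than in controls by edgeR, with median log2 changes of -0.51 and -0.46 over these lists, beside 0.01 over all genes tested, and 1 of 4 endothelial markers was called lower. Of all genes, edgeR called 1.04% lower there. On day 8 it also called 2 of 6 oligodendrocyte markers lower than in controls, where it called 3.99% of all genes. Choroid plexus markers summed to 58.6 to 1678 CPM among the 4 controls and to 37.7 to 665 CPM among day 8 mice, and 0 of 5 were called by edgeR or DESeq2 in any comparison, with 0 at an unadjusted p below 0.05. Over the comparisons edgeR called 0.00% to 21.1% of all genes. Of 6 interneuron markers 0 were called by edgeR on day 13, with 3 at an unadjusted p below 0.05, 0 called by DESeq2 and a median log2 change of -0.07. Of 4 markers of oligodendrocyte precursors 0 were called on day 13 by edgeR or DESeq2, with 0 at an unadjusted p below 0.05 and a median of -0.06. Of all genes, edgeR called 16.5% on day 13.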
